A study of Astatotilapia calliptera and Haplochromis burtoni and Pundamilia nyererei with 40 samples.

Results

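The genes described here were chosen by symbol as genes of sex steroid synthesis, which need not be the main role of each. They are the 10 genes of Astatotilapia calliptera (AC, a generalist haplochromine cichlid of Lake Malawi) whose symbols begin with cyp11, cyp17, cyp19 or hsd3b, or are star, hsd17b1 or hsd17b3, taken from 26977 genes of the AC brain and gonad table, 16908 of which carry a symbol. The members are star (ENSACLG00000011420), cyp11a2 (ENSACLG00000016892), hsd3b1 (ENSACLG00000017279), hsd3b7 (ENSACLG00000024727), cyp17a1 (ENSACLG00000004868), cyp17a2 (ENSACLG00000019809), cyp11c1 (ENSACLG00000020574), hsd17b1 (ENSACLG00000003253), hsd17b3 (ENSACLG00000015058) and cyp19a1a (ENSACLG00000018805). Each had 1 row, all 10 passed the filter on low counts in every comparison, and all 10 were found by identifier in the table of Lake Malawi testes. The rule reads lower-case symbols, so 3 further genes named CYP19A1 in capitals fall outside it and are described separately. Chromosomal positions are those of RefSeq on the fAstCal1.2 assembly, matched by symbol, which found 9 of the 10 members (cyp11a2 was not matched).

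Poly-A mRNA was sequenced from AC testes (4 libraries), AC ovary (4), AC male brain (3) and AC female brain (3), and from testes of Tropheops sp. mauve (TM, 4) and Maylandia zebra (MZ, 2), which are both rock-dwelling algae eaters of the same lake. All fish are labelled wild-type, the labels name no treatment, and their ages are not given in the sources used here. AC and TM fish were raised in aquaria with their own species, whereas the MZ fish were dominant adult males from a commercial supplier, so species and the history of the animals cannot be told apart in comparisons with MZ. The gonad libraries used here were prepared and sequenced by a company, and the paper names no kit for them. The AC brain libraries were prepared separately with a named kit, so organ and library protocol cannot be told apart either. Besides wild-type, the labels name species, tissue, a replicate number and, for brain, the sex. The p-values measure the spread between these libraries.

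In vertebrates, steroidogenesis begins when the StAR protein moves cholesterol to the inner mitochondrial membrane, where a side-chain cleavage enzyme of the CYP11A family turns it into pregnenolone. Enzymes of the HSD3B and CYP17A families convert pregnenolone to progestogens and androgens, and from there the routes part: aromatase (CYP19A1) and HSD17B1 make oestradiol, while teleost Cyp11c1 together with Hsd11b2 makes the main fish androgen, an oxygenated form of testosterone. In fish ovaries the work is shared by theca and granulosa cells around the oocyte, and in testes it falls to Leydig cells.

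Levels in AC are given as TPM, which sums to 1000000 per library and is corrected for transcript length, so that genes can be compared with each other. Total estimated counts ranged between 20608465 and 22360362 in testes, 18241046 and 21840719 in ovary, 7083868 and 15628658 in male brain, and 6728130 and 19685495 in female brain. Tests used edgeR's quasi-likelihood test on the counts with TMM scaling, fitted to all genes at once, and a gene is called changed when its Benjamini-Hochberg adjusted p lies below 0.05. A log2 fold change is given with its standard error (SE). All samples are bulk tissue, in which fewer cells of a type and less RNA per cell cannot be told apart.

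Marker lists were read next to the labels. The 5 detected spermatogenic markers summed to between 321.9 and 2176 TPM in testes and between 4.018 and 10.27 TPM in ovary. The 4 detected genes of the Sertoli cell list summed to between 64.4 and 94.5 TPM in testes and between 3.52 and 20.5 TPM in ovary. amh averaged 38.6 TPM in testes and 6.46 TPM in ovary, dmrt1 36.8 and 2.66 TPM, and sox9b 6.18 and 2.26 TPM. sox9a went the other way, with 0.157 and 0.838 TPM. In brains this list summed to between 18.3 and 41.3 TPM, so it is not a measure of Sertoli cells alone. The 4 detected genes of the Leydig cell list (inhbb, INHBB, lhcgr and ptch1) summed to between 3.14 and 6.52 TPM in testes. They summed to 0.423, 64.1, 12.6 and 13.05 TPM in ovary replicates 1 to 4. These genes went opposite ways. inhbb, which made up most of the ovary sum, averaged 16.2 TPM in ovary and 2.13 TPM in testes, and INHBB 5.16 and 0.017 TPM. lhcgr averaged 0.43 TPM in ovary and 1.42 TPM in testes, and ptch1 0.80 and 1.24 TPM. The listed insl3 was not found, so this sum is not a measure of Leydig cells alone. The 6 detected oocyte markers (bmp15, figla, gdf9, org, zar1 and zp3b) did not separate the gonads: they summed to between 4629 and 7049 TPM in testes and between 5135 and 7574 TPM in ovary, and all 6 were above 1 TPM in both. TM and MZ testes carried the same list, at 3724 to 5308 counts per 1000000 (CPM) in TM and 2939 to 4967 CPM in MZ, against 2491 to 4408 CPM in AC testes. Every testes library analysed here therefore held oocyte-marker RNA, and its part in the results was not tested. The 8 pituitary genes (of cga, gh1, lhb, pomca, prl and tshb) summed to 43450 TPM in male brain replicate 1 and to at most 51.5 TPM in every other brain library. AC ovary replicate 1 also stands apart: its TMM-scaled library size was 0.544 of its total count, against 0.947 to 1.12 in the other 13 libraries, so its values are higher on the CPM scale used in the tests than on the TPM scale.

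Where in AC these genes are expressed was the first question. The 10 genes together reached 1221, 1165, 1129 and 845 TPM in the testes libraries and 569, 1162, 503 and 189 TPM in the ovary libraries. They summed to 64.2, 56.1 and 66.4 TPM in male brain and to 35.6, 48.5 and 80.3 TPM in female brain. Summed over these 10 genes, both gonads were thus far above both brains. Among gonads the ovaries spread most, with replicate 2 at the level of the testes and replicate 4 lowest. The sum leaves out the CYP19A1 genes named in capitals. Of these, ENSACLG00000008094 ranked 302nd of 26977 genes by mean TPM in female brain and 383rd in male brain, against 1102nd in testes and 7025th in ovary. ENSACLG00000010505 ranked higher in gonads, 344th in testes and 4059th in ovary, against 15001st in male and 14943rd in female brain.

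The make-up of this sum differed by organ. In testes, star made up a mean of 38.3% of it, cyp17a1 30.0%, hsd3b1 15.8% and cyp11a2 9.71%, and cyp19a1a no more than 0.0824% in any library. In ovary, cyp19a1a held 33.3%, cyp17a1 26.5% and hsd17b1 13.5%. In brains hsd17b3 held the highest mean share, with 32.5% in males and 36.7% in females, followed by hsd3b1 with 29.1% in males and 24.3% in females. These are shares of the 10 members, without the CYP19A1 genes named in capitals. By mean TPM hsd17b3 ranked 7099th in male and 7613th in female brain, far behind ENSACLG00000008094 at 383rd and 302nd. In testes ENSACLG00000010505 ranked 344th, next to star at 338th.

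**Figure D1:**
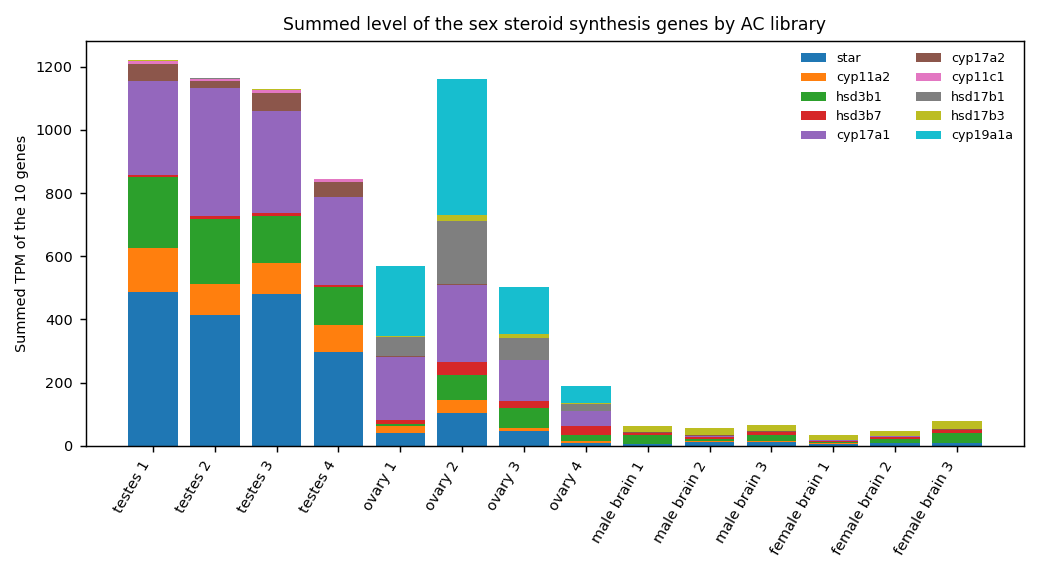
Summed TPM of the 10 sex steroid synthesis genes in each AC library (y axis), with libraries of testes, ovary, male brain and female brain along the x axis and 1 colour per gene. The testes stacks hold star, cyp17a1, hsd3b1 and cyp11a2 and no visible cyp19a1a, the ovary stacks hold cyp19a1a, cyp17a1 and hsd17b1, and no brain library exceeds 80.3 TPM. The CYP19A1 genes named in capitals are not in the stacks.

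Testes were then compared with ovaries gene by gene. Of the 10 members, 8 were called, 4 higher and 4 lower in testes, where 30.4% of all 20893 genes tested were called (16.2% higher and 14.2% lower). The share of calls among all genes that were higher in testes was 53.4%, and it was 66.5% with total counts in place of TMM and 78.9% with limma on log2(TPM + 1), while no called member changed its direction in any alternative. star, hsd3b1, cyp17a2 and cyp11c1 were higher in testes, and hsd3b7, hsd17b1, hsd17b3 and cyp19a1a were lower. On the CPM scale 9 members did not overlap between the gonads, against 30.3% of all genes. The median log2 fold change of the members was 0.99, against 0.02 over all genes, with members spread far to both sides.

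**Figure D2:**
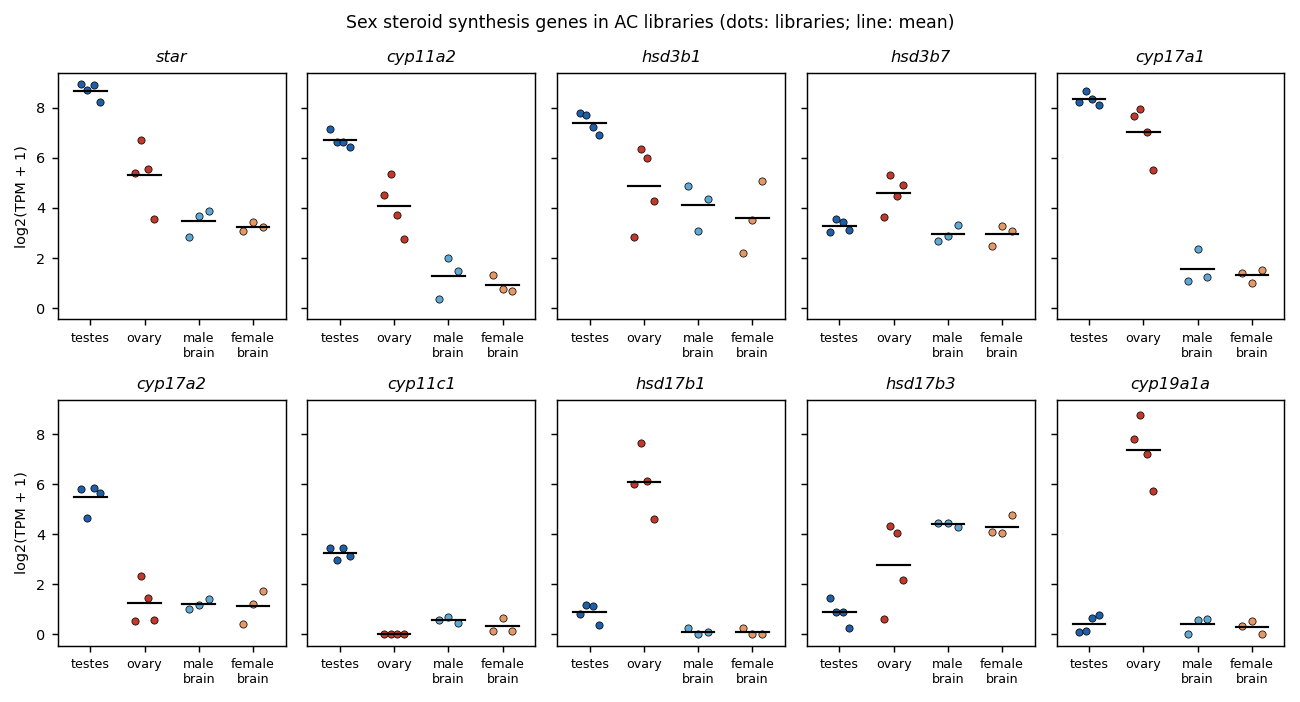
Level of each member as log2(TPM + 1) (y axis) in AC testes, ovary, male brain and female brain (x axis), with 1 dot per library and a line at the group mean. hsd17b1 and cyp19a1a stand out in ovary, cyp17a2 and cyp11c1 in testes and cyp17a1 in both gonads, and hsd17b3 lies lowest in testes.

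The first steps of the route, cholesterol import and side-chain cleavage, had their highest levels in testes. star (chromosome 12, 24609133 to 24611893) had 488, 413, 480 and 297 TPM in testes, against 41.6, 105, 45.9 and 10.8 TPM in ovary. Every testis was above every ovary, and the log2 fold change was 2.41 (SE 0.52, adjusted p = 0.00361). By mean TPM star ranked 338th of 26977 genes in testes and 3333rd in ovary.

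cyp11a2, the gene that in zebrafish encodes the gonadal side-chain cleavage enzyme, did not overlap between the gonads but was not called. It had 140, 97.9, 99.7 and 85.6 TPM in testes, against 22.0, 39.7, 12.1 and 5.81 TPM in ovary. The log2 fold change of 1.51 (SE 0.59, 95% interval 0.35 to 2.67) had an adjusted p of 0.0663. Of 17 alternatives, 12 left it uncalled as well, with adjusted p-values up to 0.152, and 5 called it. Without ovary replicate 1 the log2 fold change was 2.25 with an adjusted p of 0.00738. Total counts in place of TMM gave 1.97 with an adjusted p of 0.0171, and the replicate block 1.91 with an adjusted p of 0.0358. limma gave adjusted p-values of 0.00214 on log2(TPM + 1) and 0.0103 on log2(TPM + 0.1).

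The genes of the HSD3B family went opposite ways. hsd3b1 (chromosome 16, 7171190 to 7175142) had 222, 206, 148 and 120 TPM in testes, against 6.12, 80.9, 62.0 and 18.5 TPM in ovary. No ovary reached the lowest testis. Its log2 fold change was 1.98 (SE 0.68, adjusted p = 0.0395), a call that was lost without ovary replicate 1 or 4 or without any 1 testes library, with adjusted p-values between 0.0509 and 0.0891, and with total counts in place of TMM (adjusted p = 0.0601).

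hsd3b7 (chromosome 4, 5646873 to 5655743) is related in sequence, but in mammals its enzyme acts in bile acid synthesis on oxysterols. It was the lower one in testes, with 7.17, 10.8, 9.74 and 7.74 TPM, against 11.6, 39.1, 21.2 and 29.5 TPM in ovary. The gap between the gonads was narrow in TPM, since testes replicate 2 lay just under ovary replicate 1. The log2 fold change was -1.75 (SE 0.28, adjusted p = 0.000458).

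The 2 cyp17a genes stood apart from each other. cyp17a1 (chromosome 13, 30705840 to 30710855), whose enzyme has both the hydroxylase and the lyase activity needed for androgens, was abundant in both gonads. It had 297, 403, 321 and 277 TPM in testes, against 201, 243, 129 and 45.0 TPM in ovary. On this scale the gonads did not overlap, whereas on the CPM scale ovary replicate 1, at 729.4 CPM, was above every testis. The log2 fold change was 0.46 with a 95% interval of -0.57 to 1.50 (adjusted p = 0.543), an interval that spans 0.

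cyp17a2 (chromosome 3, 38810551 to 38821337), which in other teleosts encodes a hydroxylase lacking the lyase activity, was nearly absent from ovary. Testes had 55.0, 24.3, 57.1 and 48.7 TPM, against 0.472, 4.10, 1.76 and 0.495 TPM in ovary. The lowest testis was well above the highest ovary, and the log2 fold change was 4.65 (SE 0.66, adjusted p = 0.000208), and 5.38 without ovary replicate 2. Within each testes library cyp17a2 was present at 0.0604 to 0.185 of the TPM of cyp17a1, and within each ovary library at 0.00235 to 0.0169.

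On the androgen side, cyp11c1 (chromosome 11, 21189554 to 21207550) encodes the hydroxylase that acts before hsd11b2 in making the fish androgen and that also makes cortisol in the interrenal gland. It had 10.1, 6.95, 9.91 and 7.71 TPM in testes and no estimated count in any ovary. At a floor of 3 counts per library in ovary, the testes were at least 73.3-fold higher (adjusted p = 1.36e-05). The separate genome-aligned counts had 431, 303, 460 and 410 reads in testes, against 0, 2, 0 and 0 in ovary. The other 2 interrenal markers went to opposite sides: mc2r averaged 0.53 TPM in testes and 0.04 TPM in ovary, and cyp21a2 averaged 0.07 TPM in testes and 4.82 TPM in ovary. The part of interrenal cells was not tested.

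Both hsd17b genes were low in testes. hsd17b1 (chromosome 4, 8369231 to 8371804), whose enzyme reduces oestrone to oestradiol, had 0.775, 1.23, 1.23 and 0.314 TPM in testes, against 62.4, 198, 68.1 and 23.7 TPM in ovary. Each ovary was many times above each testis, with a log2 fold change of -7.15 (SE 0.76, adjusted p = 2.74e-05).

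hsd17b3 (chromosome 12, 13393425 to 13411295) encodes the enzyme that in mammals makes testosterone in Leydig cells. In AC it was low in testes, with 1.72, 0.883, 0.876 and 0.205 TPM in testes, against 0.520, 19.0, 15.4 and 3.46 TPM in ovary. Ovary replicate 1 lay among the testes in TPM, and the counts behind these values were small, with 7, 4, 4 and 1 in testes and 5, 101, 86 and 17 in ovary. The log2 fold change was -3.78 (SE 0.74, adjusted p = 0.00178), and the call was lost with limma on the TPM values, where the adjusted p was 0.0559 with a pseudocount of 1 and 0.0588 with a pseudocount of 0.1.

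cyp19a1a (chromosome 1, 11414677 to 11417690), the ovarian aromatase of teleosts, had the lowest log2 fold change of the members. It had 0.0803, 0.111, 0.598 and 0.696 TPM in testes, against 223, 433, 148 and 51.8 TPM in ovary. The 4 testes libraries held 2, 3, 16 and 19 estimated counts, and the ovaries between 1335 and 11200. The log2 fold change was -9.52 (SE 0.95, adjusted p = 1.85e-05), and it ranked 18967th of all genes by mean TPM in testes and 663rd in ovary.

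Which ovary was highest depended on the scale. In TPM, replicate 2 was the highest for all 9 members detected there, replicate 4 the lowest for star, cyp11a2, cyp17a1, hsd17b1 and cyp19a1a, and replicate 1 the lowest for hsd3b1, hsd3b7, cyp17a2 and hsd17b3. On the CPM scale, replicate 1 was instead the highest for star (117 CPM), cyp11a2 (118 CPM), cyp17a1 (729.4 CPM) and cyp19a1a (558 CPM). The ratio of cyp19a1a to cyp17a1 was between 0.000271 and 0.00251 in testes, and stayed between 1.11 and 1.78 in the 4 ovaries although their summed level differed between 189 and 1162 TPM. The 3 granulosa and theca markers (fsta, inha and inhbaa) summed to between 46.8 and 60.3 TPM in testes, and to 44.9, 269, 74.3 and 72.1 TPM in ovary replicates 1 to 4. Ovary replicate 2 thus led this list too, as it did the Leydig cell list. Most of the sum was inha, with a mean of 109.7 TPM in ovary (highest 256.9) and 48.2 TPM in testes. fsta was also higher in ovary (2.49 against 0.10 TPM), while inhbaa was lower there (2.98 against 5.52 TPM). The listed foxl2 genes were not found. The part of these cells in the ovary differences was not tested.

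Over the 14 AC libraries, the named genes most like cyp19a1a in log2(TPM + 1), among 13234 genes compared, were sparcl1 (Pearson r = 0.973) and gata4 (r = 0.972). sparcl1 averaged 0.273 TPM in testes and 93.2 TPM in ovary, and gata4 0.559 TPM in testes and 11.4 TPM in ovary. For cyp17a1 they were gstt1a (r = 0.994), with 105.0 TPM in testes and 42.1 TPM in ovary, and slc26a11 (r = 0.986), with 19.9 TPM in testes and 17.9 TPM in ovary. These correlations are descriptions over libraries that share organ and protocol.

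The wider pathway was read from a list of 82 symbols, 59 of which were found, as 68 genes. Of the 65 tested between the gonads, 9 were higher and 12 lower in testes, and the other 44 were not called, so that 32.3% of the list was called, near the 30.4% of all genes. hsd11b2, which completes the fish androgen after cyp11c1, averaged 36.4 ± 8.82 TPM in testes and 1.45 ± 0.878 TPM in ovary (SD, n = 4 each), with a log2 fold change of 4.14 (SE 0.52, adjusted p = 7.85e-05). cyp11c1 and hsd11b2 were thus both higher in testes.

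cbr1 (ENSACLG00000000032), one of 4 genes of that symbol and a carbonyl reductase that in fish can make a maturation-inducing progestogen, averaged 827 ± 307 TPM in testes and 21.7 ± 28.0 TPM in ovary (SD, n = 4 each). Its log2 fold change was 4.03 (SE 1.13, adjusted p = 0.0157), and 6.62 without ovary replicate 1. Genes of 1 symbol can share reads, and how they were split between the cbr1 genes was not examined. hmgcs1, an early enzyme of cholesterol synthesis, averaged 170.0 ± 29.5 TPM in testes and 30.5 ± 18.3 TPM in ovary (log2 fold change 2.38, SE 0.38, adjusted p = 0.000438). In the cholesterol group as a whole 3 of 19 genes were higher and 3 lower, or 31.6% called, near the 30.4% of all genes.

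Among 7 regulators tested, dmrt1 was higher in testes and gata4 and gata6 were lower, which is 42.9% called, against 30.4% of all genes. dmrt1, a transcription factor of testis development, averaged 36.8 ± 6.47 TPM in testes and 2.66 ± 1.13 TPM in ovary (SD, n = 4 each; log2 fold change 3.31, SE 0.57, adjusted p = 0.0012). gata4, a transcription factor of gonadal somatic cells, averaged 0.559 ± 0.103 TPM in testes and 11.4 ± 7.43 TPM in ovary (log2 fold change -4.88, SE 0.85, adjusted p = 0.00081). gata6 averaged 9.36 ± 0.847 TPM in testes and 39.2 ± 27.0 TPM in ovary (log2 fold change -2.88, SE 0.74, adjusted p = 0.00951). The gonads overlapped, since ovary replicate 4, at 4.352 TPM, lay below every testis (8.776 to 10.6 TPM). The call of gata6 was lost with limma on log2(TPM + 1) (adjusted p = 0.102) and on log2(TPM + 0.1) (adjusted p = 0.149), and with the replicate block (adjusted p = 0.0748). Without ovary replicate 1 its log2 fold change was -1.80.

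Of the 10 gonadotropin and steroid receptors tested, none was higher and 2 were lower in testes. The share called was below the 30.4% of all genes, and 14.2% of all genes were lower in testes. pgr, the nuclear progestin receptor, averaged 1.58 ± 0.581 TPM in testes and 13.3 ± 14.3 TPM in ovary (SD, n = 4 each; log2 fold change -3.22, SE 0.67, adjusted p = 0.0027, and -2.42 without ovary replicate 2). In TPM the gonads overlapped for pgr, with ovary replicate 1 at 1.805 TPM and testes up to 2.39 TPM. Among the other steroid enzymes, hsd17b12a, which in mammals acts in fatty acid elongation and can reduce oestrone, averaged 35.7 ± 7.54 TPM in testes and 95.3 ± 48.3 TPM in ovary (log2 fold change -2.63, SE 0.63, adjusted p = 0.00666, and -1.23 without ovary replicate 1).

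The brain served as the second organ in which males and females were compared. None of the 10 members, and 0 of all 20893 genes, was called between male and female brain by edgeR. At an unadjusted p below 0.05 there were 564 genes and no member, and DESeq2 called 10 genes, limma on log2(TPM + 1) 5 and limma on log2(TPM + 0.1) 8, none of them a member. star had 6.15, 11.8 and 13.9 TPM in male brain, against 7.38, 9.81 and 8.34 TPM in female brain, a log2 fold change of 0.42 with a 95% interval of -0.75 to 1.58. With 3 libraries each, such intervals leave room for differences of more than 2-fold.

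hsd17b3 had the highest mean TPM of the members in both brains, although hsd3b1 was above it in 3 of 6 brain libraries. It had 20.9, 20.9 and 18.4 TPM in male brain, against 16.0, 15.6 and 26.4 TPM in female brain, and the sexes overlapped (log2 fold change 0.15, 95% interval -1.26 to 1.56). hsd3b1 was uneven, with 28.7, 7.57 and 19.3 TPM in male brain, against 3.63, 10.4 and 33.0 TPM in female brain. hsd3b7 had 5.35, 6.40 and 9.0 TPM in male brain, against 4.52, 8.60 and 7.56 TPM in female brain.

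The remaining 6 members were at or below 4.09 TPM in every brain library. cyp17a1 reached 1.10, 4.09 and 1.36 TPM in male brain, against 1.63, 1.01 and 1.86 TPM in female brain. cyp19a1a reached at most 0.536 TPM and hsd17b1 at most 0.212 TPM in any brain, and cyp11c1 rested on 1 to 6 estimated counts per brain library. Among the 3 male brains, replicate 1, the library rich in pituitary RNA, had the highest level of hsd3b1 and the lowest of star and hsd3b7, and the part of pituitary RNA in these values was not tested.

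Gonads were next set against the brain of the same sex, with the confounding by library protocol given above. Between testes and male brain 8 members were called, 7 higher and hsd17b3 lower in testes, where 65.0% of all genes were called (32.5% higher and 32.5% lower), and the count was again 8 without the pituitary-rich male brain replicate 1. cyp17a1 had a log2 fold change of 7.44 (SE 0.81, adjusted p = 2.7e-06) and cyp11a2 one of 6.20 (SE 0.84, adjusted p = 2.05e-05). star was at 5.13 (SE 0.68, adjusted p = 1.56e-05), cyp17a2 at 5.54 (SE 0.80, adjusted p = 3.59e-05), cyp11c1 at 4.63 (SE 0.64, adjusted p = 6.46e-05) and hsd3b1 at 3.65 (SE 0.82, adjusted p = 0.00142). Without male brain replicate 2, cyp17a1 was at 8.20 and cyp11a2 at 6.81.

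hsd17b3 ran against the others. It was lower in testes than in male brain in every library, with a log2 fold change of -5.13 (SE 0.79, adjusted p = 6.12e-05). hsd17b1, with at most 1.23 TPM in testes, was called at 3.14 (SE 1.12, adjusted p = 0.0244) but lost the call without male brain replicate 2 (adjusted p = 0.0757) or 3 (adjusted p = 0.0851). hsd3b7 was not called, at 0.71 (SE 0.30, adjusted p = 0.0512), and cyp19a1a was below 1 TPM in all 7 of these libraries.

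Between ovary and female brain 8 members were called, where 67.7% of all genes were (32.4% higher and 35.4% lower, so that 47.8% of calls were higher, against 35.2% with limma on log2(TPM + 1)). cyp19a1a had a log2 fold change of 10.51 (SE 1.19, adjusted p = 2.82e-06), hsd17b1 one of 9.995 (SE 1.07, adjusted p = 1.75e-06) and cyp17a1 one of 7.52 (SE 0.82, adjusted p = 2.02e-06). cyp11a2 followed at 5.23 (SE 0.81, adjusted p = 5.78e-05), star at 3.13 (SE 0.61, adjusted p = 0.000428) and hsd3b7 at 2.54 (SE 0.33, adjusted p = 9.34e-06). cyp19a1a and hsd17b1 thus had the widest gap to female brain among the members. Their female brain means were only 0.22 and 0.05 CPM. hsd17b1 stood at 0 TPM in female brain replicates 2 and 3, and cyp19a1a in replicate 3. Both fitted values therefore depend on the prior count and are not measured folds. Without female brain replicate 1 hsd17b1 was at 13.46, and without ovary replicate 1 cyp17a1 was at 6.85 and cyp11a2 at 4.50. In this comparison cyp11c1 was the 1 member called lower in ovary. That call rested on 2, 4 and 1 counts in female brain, against none in ovary, too few for a fold, and was lost with limma on log2(TPM + 1) (adjusted p = 0.151).

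hsd3b1 was called higher in ovary at 1.99 (SE 0.76, adjusted p = 0.0318), but lost the call in 8 of 14 alternatives, was at 3.202 without female brain replicate 3, and its ovary and brain libraries overlapped. cyp17a2 and hsd17b3 were not called, with log2 fold changes of 1.14 (SE 0.70, adjusted p = 0.158) and -1.20 (SE 0.67, adjusted p = 0.127). Of the wider list, 31 genes were higher and 10 lower in testes than in male brain, which is 63.1% of the list against 65.0% of all genes, and 34 were higher and 15 lower in ovary than in female brain, 75.4% against 67.7%.

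Named by the same rule, dmrt1 (log2 fold change 9.39, SE 0.96, adjusted p = 3.73e-06) and cbr1 ENSACLG00000000032 (9.19, SE 1.68, adjusted p = 0.000285) were higher in testes than in male brain, dmrt1 at 13.24 without male brain replicate 2. In male brain dmrt1 was at 0, 0.185 and 0 TPM, so its fitted value depends on the prior count and is not a measured fold. This cbr1 gene was at 0, 2.05 and 2.22 TPM there. Of the other cbr1 genes, ENSACLG00000000042 averaged 120.5 TPM in testes and 138.1 TPM in male brain. ENSACLG00000000103 averaged 3.52 and 19.9 TPM, and ENSACLG00000027796 1.98 and 0 TPM. gper1, a membrane oestrogen receptor, at -7.40 (SE 1.23, adjusted p = 0.000285), and nr0b1 ENSACLG00000027716, a repressor of steroidogenic genes, at -3.80 (SE 0.83, adjusted p = 0.00118), were lower. A further gene, NR0B1 ENSACLG00000000451, averaged 11.7 TPM in male brain and 7.17 TPM in testes. Its groups overlapped, with male brain down to 4.85 TPM and testes at 6.20 to 8.14 TPM. gper1 had 0.098, 0.0897, 0 and 0 TPM in testes, against 29.7, 2.51 and 2.61 TPM in male brain, where the pituitary-rich replicate 1 was the high one. Without that library the log2 fold change was -5.16 (adjusted p = 0.000872), and DESeq2 gave no adjusted p for this gene. Between ovary and female brain gata6 (8.57, SE 1.15, adjusted p = 1.5e-05) and gata4 (7.11, SE 1.13, adjusted p = 7.06e-05) were higher (gata6 at 7.52 without ovary replicate 1, and gata4 at 8.66 without female brain replicate 1), and the sulphotransferase sult2st3 (-3.17, SE 0.69, adjusted p = 0.000981) and hsd17b14 (-2.48, SE 0.59, adjusted p = 0.00182, and -3.16 without ovary replicate 2) were lower. gata4 was at 0.211, 0.0849 and 0 TPM in female brain, so its fitted value depends on the prior count and is not a measured fold.

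**Figure D3:**
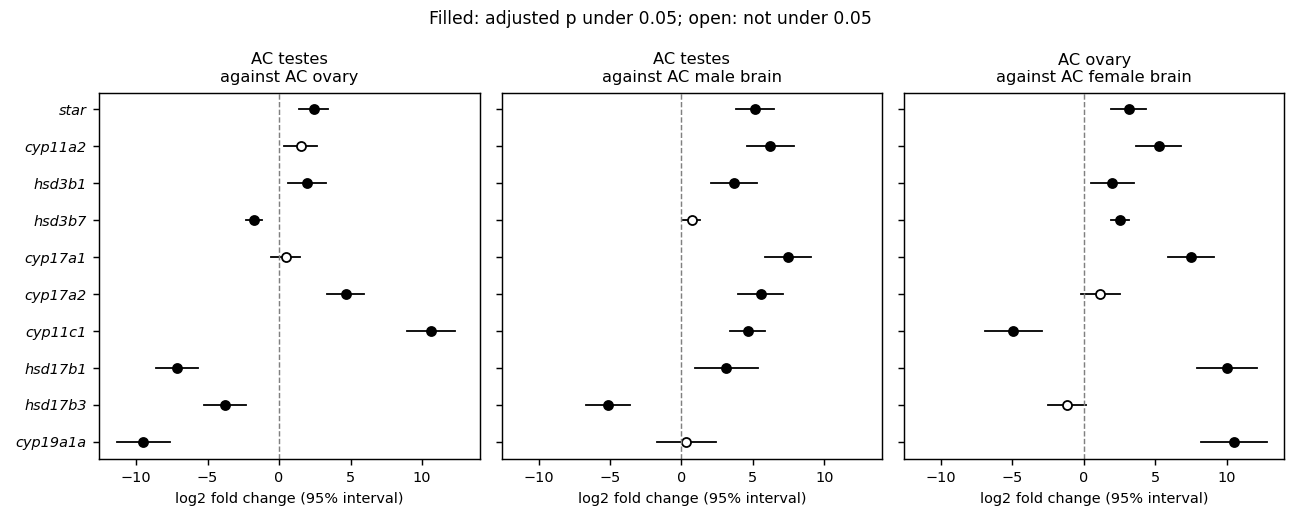
log2 fold change of each member with its 95% interval (x axis) for testes against ovary, testes against male brain and ovary against female brain, with filled dots for an adjusted p under 0.05. star, cyp17a1, cyp11a2 and hsd3b1 lie to the right in both gonad against brain panels. cyp19a1a and hsd17b1 lie to the left in the first panel, where ovary is the reference, and to the right in the third, where ovary is the tested group.

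Whether the sex difference depended on the organ was tested with an interaction, the testes to ovary difference minus the male to female brain difference. It was called for 5 members, where 12.4% of all genes were called (7.63% positive and 4.78% negative). Positive calls made up 61.5% of these, and 84.6% with limma on log2(TPM + 1). It was positive for cyp11c1 (9.56, SE 1.19, adjusted p = 0.000849, a fitted value that depends on the prior count because the ovaries hold no counts) and for cyp17a2 (4.397, SE 0.98, adjusted p = 0.0111). It was negative for cyp19a1a (-10.16, SE 1.71, adjusted p = 0.00218), hsd17b3 (-3.94, SE 1.02, adjusted p = 0.0228) and hsd3b7 (-1.82, SE 0.43, adjusted p = 0.0136). cyp19a1a stood at 0 TPM in male brain replicate 1 and female brain replicate 3, so its fitted value also depends on the prior count.

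hsd17b1 missed the threshold, at -6.86 (SE 2.32, adjusted p = 0.0691), with 0 to 3 counts per brain library. star was at 1.99 (SE 0.78, adjusted p = 0.111). With total counts in place of TMM 3 members were called, and hsd17b3 (adjusted p = 0.0514) and hsd3b7 (adjusted p = 0.0654) were not among them. Both also lost the call with limma on log2(TPM + 1), where hsd17b3 was at -1.98 (adjusted p = 0.255) and hsd3b7 at -1.33 (adjusted p = 0.142), and on log2(TPM + 0.1), with adjusted p-values of 0.275 and 0.164. hsd17b3 lost it without female brain replicate 1 (adjusted p = 0.0587) or 2 (adjusted p = 0.0631) as well.

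The aromatase genes named in capitals were read in the same libraries. Teleosts have an ovarian and a brain aromatase gene, and no gene of the AC table carries the symbol cyp19a1b of the brain form, so no CYP19A1 gene is assigned to it here. CYP19A1 ENSACLG00000008094 had 193, 246 and 618 TPM in male brain, against 177, 383 and 732 TPM in female brain, and was not called between them (log2 fold change -0.25, 95% interval -1.65 to 1.16). It was thus far above cyp19a1a in every brain library.

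The same gene was also present in testes. It had 220, 115, 117 and 126 TPM there, against 3.34, 55.4, 8.51 and 8.09 TPM in ovary, with no overlap and a log2 fold change of 2.87 (SE 0.67, adjusted p = 0.00536, and 4.08 without ovary replicate 2). In the interaction test it was called, at 3.12 (SE 0.97), a sign opposite to that of cyp19a1a, with an adjusted p that rounds to 0.05. That call was lost with total counts in place of TMM (adjusted p = 0.0847), with the replicate block (adjusted p = 0.054) and without any 1 testes library. CYP19A1 ENSACLG00000010505 had 489, 424, 439 and 290 TPM in testes, against 1.71, 135, 15.8 and 11.7 TPM in ovary (log2 fold change 3.31, SE 0.94, adjusted p = 0.0167, and 5.15 without ovary replicate 2). These 2 genes therefore ran opposite to cyp19a1a between the gonads, and ENSACLG00000009748 was at or below 0.111 TPM in all 14 libraries. As genes of 1 family they can share reads, and how reads were split between them was not examined.

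The testes of the 3 Lake Malawi species were compared next, in CPM from counts of reads aligned to the AC genome, which can understate TM and MZ genes that differ in sequence. Total counts ranged between 23929531 and 25441394 in TM, 24591549 and 26742599 in MZ and 23631390 and 25642737 in AC. In all 3 species star, cyp17a1, cyp11a2, hsd3b1 and cyp17a2 were expressed, and cyp19a1a, hsd17b1 and hsd17b3 stayed at or below 2.16 CPM in all 10 libraries. The comparisons with AC share the AC libraries, and those with MZ share the 2 MZ libraries.

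Between TM and AC testes 2 members were called, where 18.8% of 20705 genes and transposable element families were (8.87% higher and 9.93% lower). Of the calls among all features 47.2% were higher in TM, and 31.6% with total counts in place of TMM. hsd3b7 had 68.2, 48.2, 68.9 and 45.1 CPM in TM, against 18.1, 29.5, 22.6 and 21.0 CPM in AC. Every TM library was above every AC library (log2 fold change 1.34, SE 0.21, adjusted p = 0.00142). cyp11c1 had 2.75, 1.65, 3.04 and 9.51 CPM in TM, against 17.3, 12.1, 15.8 and 15.9 CPM in AC, again without overlap (log2 fold change -1.85, SE 0.46, adjusted p = 0.0178, and -2.62 without TM replicate 4). Among the marker lists, the 4 genes of the leukocyte list (cd74b, coro1a, lcp1 and ptprc) summed to between 64.8 and 79.2 CPM in TM, against 524 to 1198 CPM in AC. In AC testes this sum was mostly lcp1 (mean 229.5 TPM, and 220.1 TPM in ovary) and cd74b (33.3 to 758.6 TPM). ptprc averaged 4.72 TPM there and coro1a 1.86 TPM, so the sum is not a measure of leukocytes alone. The Leydig cell list summed to between 7.30 and 12.5 CPM in TM, against 6.67 to 14.04 CPM in AC. The part of these cells in the species differences was not tested.

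The other 8 members were not called. cyp19a1a, at no more than 20 counts per library, had 0.127, 0.179, 0.0417 and 0 CPM in TM, against 0.201, 0.160, 0.688 and 0.776 CPM in AC (log2 fold change -2.34, SE 0.81, adjusted p = 0.0668), and DESeq2 gave an adjusted p of 0.0481. TM replicate 2 lay above the lowest AC library, so the species overlapped. hsd3b1 had 182, 159, 193 and 316 CPM in TM, against 197, 197, 122 and 112 CPM in AC, and star had 455, 268, 487 and 675 CPM in TM, against 359, 329, 332 and 240 CPM in AC. Both genes overlapped between the species.

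Between MZ and AC testes 2 members were called, where 8.9% of all features were (5.17% higher and 3.73% lower). star had 1008 and 1040 CPM in MZ, against 359, 329, 332 and 240 CPM in AC (log2 fold change 1.70, SE 0.29, adjusted p = 0.00571), and this call held in all 11 alternatives. cyp17a2 had 232 and 247 CPM in MZ, against 75.4, 35.2, 72.6 and 72.6 CPM in AC (log2 fold change 1.90, SE 0.41, adjusted p = 0.0175), and lost the call without MZ replicate 2 (adjusted p = 0.0689). Neither gene overlapped between the species. The granulosa and theca markers summed to 88.3 and 100.4 CPM in MZ, against 51.7 to 63.8 CPM in AC. In AC testes this list was mostly inha (41.5 to 55.7 TPM, against 43.0 to 256.9 TPM in ovary), so it is not a measure of those cells alone. The Leydig cell list summed to 4.73 and 8.98 CPM in MZ, against 6.67 to 14.04 CPM in AC. The leukocyte list summed to 96.2 and 402 CPM in MZ, against 524 to 1198 CPM in AC. The part of the cells behind these lists was not tested.

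cyp11a2, cyp17a1, cyp11c1 and hsd17b3 did not overlap between MZ and AC but were not called. With 2 MZ libraries, a lack of overlap carries little weight. cyp11a2 had 145 and 167 CPM in MZ, against 90.5, 70.1, 60.4 and 62.0 CPM in AC, with a log2 fold change of 1.14 (SE 0.36, adjusted p = 0.0727), and DESeq2 gave an adjusted p of 0.036. cyp17a1 had 602 and 880 CPM in MZ, against 433, 583, 404 and 417 CPM in AC (log2 fold change 0.69, SE 0.33, adjusted p = 0.219). cyp11c1 had 31.5 and 19.2 CPM in MZ, against 17.3, 12.1, 15.8 and 15.9 CPM in AC (log2 fold change 0.73, SE 0.53, adjusted p = 0.43).

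Between TM and MZ testes 5 members were called, where 10.2% of all features were (3.77% higher and 6.45% lower). Of these calls 36.9% were higher in TM, and 25.1% with total counts. cyp11c1 (-2.58, SE 0.53, adjusted p = 0.0123), cyp17a2 (-1.85, SE 0.41, adjusted p = 0.0178), cyp11a2 (-1.46, SE 0.36, adjusted p = 0.0263) and star (-1.12, SE 0.29, adjusted p = 0.0349) were lower in TM. hsd3b7 was higher in TM (1.08, SE 0.26, adjusted p = 0.0262). Over 11 alternatives the call of cyp11c1 held in all, while that of cyp17a2 was lost in 2, of cyp11a2 in 5, of hsd3b7 in 6 and of star in 7. Only 2 MZ libraries stand behind these values: with 1 library left out between 1 and 6 members were called, 1 without MZ replicate 2, 1 without TM replicate 3 and 6 without TM replicate 4. The granulosa and theca markers summed to between 42.05 and 54.9 CPM in TM, against 88.3 and 100.4 CPM in MZ. In testes this list is not a measure of those cells alone, and its part was not tested.

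TM replicate 4 stood apart within its group. It had 104 CPM of cyp11a2, against 41.8, 40.7 and 40.2 CPM in TM replicates 1, 2 and 3, and 838 CPM of cyp17a1, against 386, 387 and 402 CPM in them. It was also the highest TM library for star, hsd3b1, cyp17a2 and cyp11c1 and the lowest for hsd3b7. Its oocyte marker sum (5308 CPM) and its granulosa and theca marker sum (54.9 CPM) were the highest of the 4 TM libraries, its Leydig cell list sum (7.30 CPM) was the lowest, its spermatogenic marker sum (757 CPM) lay among theirs, and their part in these values was not tested.

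**Figure D4:**
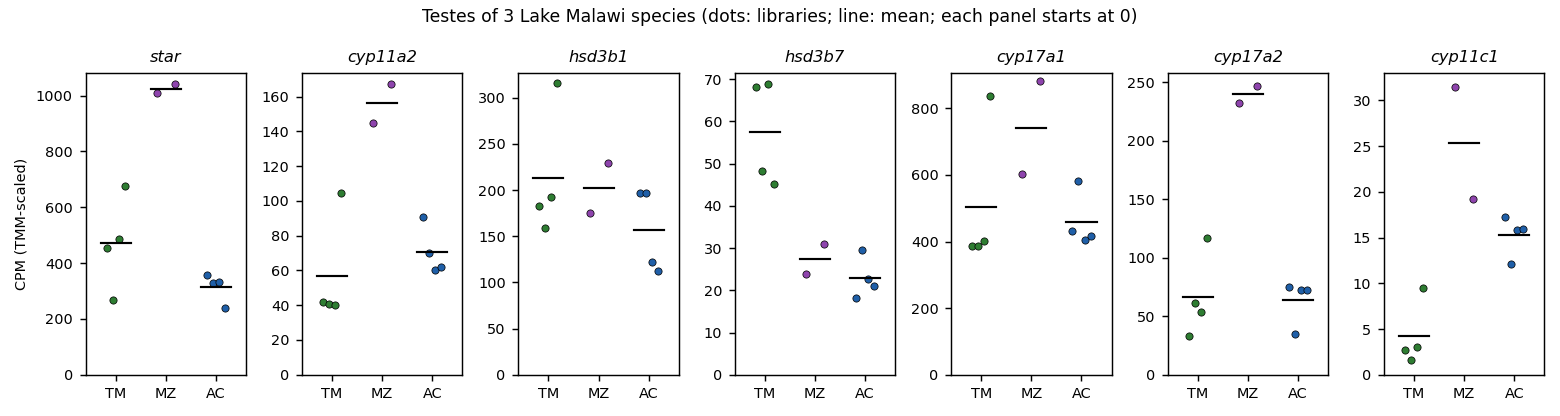
CPM (y axis, from 0 in each panel) of the 7 members above 1 CPM in every library in testes of TM, MZ and AC (x axis), with 1 dot per library and a line at the group mean. Both MZ dots lie above all AC dots for star, cyp11a2, cyp17a1, cyp17a2 and cyp11c1. TM lies highest for hsd3b7 and lowest for cyp11c1, and 1 TM dot stands above the other 3 for cyp11a2 and cyp17a1.

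Of the wider list 61 genes were tested in testes, of which 5 were higher and 9 lower in TM than in AC, 2 higher and 6 lower in MZ than in AC, and 4 higher and 4 lower in TM than in MZ. These are 23.0% of the list against 18.8% of all features for TM and AC, 13.1% against 8.9% for MZ and AC, and 13.1% against 10.2% for TM and MZ. Both named genes of 5-alpha-reductases, enzymes that reduce testosterone, were called in TM and in MZ, srd5a2a with opposite signs. srd5a1 averaged 16.2 ± 4.64 CPM in TM (SD, n = 4) and 14.02 ± 8.07 CPM in MZ (SD, n = 2), against 1.12 ± 0.179 CPM in AC (SD, n = 4), with log2 fold changes of 3.85 (SE 0.33, adjusted p = 3.66e-05) for TM and 3.64 (SE 0.36, adjusted p = 0.000206, and 2.89 without MZ replicate 2) for MZ. srd5a2a split TM and MZ, with 46.0 ± 5.47 CPM in TM and 1.27 ± 0.431 CPM in MZ, against 6.62 ± 1.15 CPM in AC, and log2 fold changes of 2.80 (SE 0.21, adjusted p = 1.36e-05) for TM and -2.38 (SE 0.29, adjusted p = 0.000724) for MZ.

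Between TM and MZ directly, srd5a2a was higher in TM (log2 fold change 5.18, SE 0.33, adjusted p = 1.37e-05). hsd11b2 was lower in TM (log2 fold change -1.37, SE 0.33, adjusted p = 0.0239), at 31.3 ± 14.05 CPM in TM (SD, n = 4) and 80.8 ± 4.21 CPM in MZ (SD, n = 2), the same side as cyp11c1. The call of hsd11b2 was lost in 5 of 11 alternatives. porb, the electron donor of microsomal steroid hydroxylases, was lower in TM than in AC (-1.85, SE 0.24, adjusted p = 0.000416). cbr1 ENSACLG00000000032 averaged 0.334 CPM in TM and 0.038 CPM in MZ, against 484 CPM in AC, as aligned to the AC genome, and cbr1 ENSACLG00000000042 was lower in TM than in MZ (-1.22, SE 0.21, adjusted p = 0.0052).

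CYP19A1 ENSACLG00000008094 was found in testes of all 3 species. It had 120, 117, 126 and 232 CPM in TM and 232 and 281 CPM in MZ, against 157, 88.3, 75.2 and 99.9 CPM in AC, and was called for MZ against AC (log2 fold change 1.28, SE 0.32, adjusted p = 0.0316), a call lost in 7 alternatives. In TM, replicate 4 again held the highest value.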

How the data were processed

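mRNA of 40 libraries was sequenced as paired ends by the study, of which 20 enter this report. For AC brains and gonads the authors trimmed reads with Trimmomatic 0.39 and quantified transcripts with Salmon 1.5.1 (sequence and GC bias correction) on the fAstCal1.2 annotation. They deposited estimated counts, which were rounded, and length-scaled TPM. The TPM values as deposited were treated as a score, since 382 repeated rows had to be dropped before each library summed to 1000000, and are called TPM after that step. For Lake Malawi testes the authors aligned reads of all 3 species to fAstCal1.2 with STAR 2.5.4b, kept reads mapping to several places, and deposited counts per gene and per transposable element family from TEtranscripts (reverse-stranded counting). Such counts share reads between near copies. Columns of group means (4) were not used.

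Counts were tested with edgeR 4.0.16 (filterByExpr, TMM, robust quasi-likelihood), in 1 fit over the 14 AC libraries and 1 over the 10 testes libraries, with Benjamini-Hochberg adjustment over all features. The standard error is the fold change divided by the square root of F, and 95% intervals are 1.96 standard errors to each side. This leaves out the few residual degrees of freedom, so the intervals are narrower than the quasi-likelihood F test implies. For cyp17a1 in MZ against AC testes the interval was 0.051 to 1.332, at an unadjusted p of 0.0573 by that test. Intervals and the floor of 3 counts per library cover these libraries and counting error only. The fits were tested on simulated data. Alternatives were total counts, DESeq2 1.42.0, no filter, the replicate number as a block, only the groups compared, each library left out, limma 3.58.1 on log2(TPM + 1) and log2(TPM + 0.1), and genome-aligned counts for testes against ovary. All 37 pairs of replicates differed beyond sampling noise (chi-square per degree of freedom of at least 7.32), so none was counted as 1 library.

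Every member was accounted for, and members with a group mean of at least 1 TPM in any AC group are given in every library. From the pathway list, called genes with a mean of at least 5 TPM or CPM in either group are named, up to 4 each way for testes against ovary and up to 2 each way otherwise. A gene that this rule names is not reported here. The members and lists were chosen with earlier results of these data known. RefSeq gave positions only.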

Additional observations from a re-analysis of the deposited data

Results flagged for a closer look

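TM testes replicate 4 lay far from the other 3 TM libraries for 2 genes, cyp11a2 at 104.4 CPM (its gap to the next library was 0.974 of the group's range) and cyp17a1 at 838.1 CPM (0.963 of the range). In all 29 groups of 4 libraries were examined in this way, and chance alone marks about 1 in 20.

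For 5 members the sex difference in gonads differed from that in brain by the interaction test. The difference of log2 fold changes was 9.555 for cyp11c1, 4.397 for cyp17a2, -10.164 for cyp19a1a, -3.936 for hsd17b3 and -1.822 for hsd3b7. In each case the members were not called between male and female brain, where cyp11c1 and cyp19a1a stood below 1 TPM.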

How the results depend on the processing

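Over 45 results for single members and 658 values under alternatives, no direction turned. These 45 were the 38 calls and some uncalled results picked by hand. The other uncalled results were not covered, and the alternatives reuse the same libraries. Of 38 calls, 26 held in every alternative and 12 were lost in at least 1. In the interaction, 3 members were called with total counts in place of TMM, against 5. Leaving out 1 library gave between 1 and 2 called members for MZ against AC testes and between 1 and 6 for TM against MZ testes. With the replicate block 2 members were called between TM and MZ testes, against 5, and 9 between testes and ovary, against 8; it changed no other member count by over 1.5 times. With the block, cyp11a2 was called between testes and ovary (1.91, adjusted p = 0.0358). Same-numbered libraries correlated between -0.344 and 0.429 in their deviations, and in no comparison were all pairs above 0.1, so the numbers were not used as pairs. Counts over all features moved more: testes against ovary had 6354 calls, 3722 with only these 2 groups and 4217 with the uncurated genome-aligned counts. MZ against AC testes had 1842 calls, 625 with the replicate block, 620 with only these 2 groups, 3021 with DESeq2 and 1166 without AC replicate 1. TM against MZ testes had 2116 calls, 856 with the replicate block, 3391 with DESeq2 and between 1159 and 4112 with 1 library left out. TM against AC testes had 3893 calls and 2543 without TM replicate 1, and the interaction had 2594 calls, 1726 with limma on log2(TPM + 1) and between 1617 and 4105 with 1 library left out. Over all genes the median log2 difference of testes and ovary was 0.22 with total counts, against 0.02 with TMM, that of ovary and female brain -0.33, against -0.07, that of TM and AC testes -0.18, against -0.01, and that of TM and MZ testes -0.14, against -0.01. Depth limits cyp11c1, cyp19a1a and hsd17b1 in brain, where no library had more than 8 estimated counts of any of them.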
